A study of Mus musculus with 11 samples.

Results

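Albumin and 9 other carrier proteins that hepatocytes secrete into plasma were followed at the transcript level in isolated mouse hepatocytes with and without Xbp1. The 10 genes (Alb, Gc, Ttr, Rbp4, Tf, Selenop, Ahsg, Fetub, Hrg and Ambp) were chosen by name as a family of function, out of 54232 genes in the count files, and all 10 passed the filter on low counts. Tf is listed as Trf in the GENCODE annotation.

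Plasma carriers are made as secretory proteins: they enter the endoplasmic reticulum (ER) during translation, fold and form disulfide bonds there, and leave through the Golgi apparatus. Albumin is the most abundant plasma protein and binds fatty acids, bilirubin, hormones and many drugs. Xbp1 encodes a transcription factor of the unfolded protein response that is activated by IRE1 and raises the folding and secretory capacity of the ER, so the messages of the main ER clients are of interest in cells that lack it.

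Control mice (Xbp1 fl/fl, with loxP-flanked Xbp1 alleles and labelled flox) and liver-specific Xbp1 knockout mice (Xbp1 LKO, labelled KO) were adult males on a C57BL/6 background. Each genotype received either standard chow or a diet rich in fat and sugar (HFS diet), for 6 weeks at most. The 4 groups are called fl/fl chow (3 libraries), LKO chow (2 libraries), fl/fl HFS (3 libraries) and LKO HFS (3 libraries), and the 6 mice of each HFS cohort were pooled into 3 libraries. In the study's description chow libraries were not pools, so each stands for 1 mouse. Cre in the Xbp1 LKO mice is driven by the promoter of Alb itself, and the controls are marked as lacking Cre. Carriage of this transgene and the loss of Xbp1 therefore cannot be told apart in any genotype comparison here, that of Alb included.

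The libraries held 19191032 to 23888401 counts over genes, and no pair of replicates was alike enough to be 1 library deposited more than once. Xbp1 was lower in the knockout libraries, at 95.7 and 128 CPM (read counts scaled to the size of the library) on chow and 97.3 to 135 CPM on the HFS diet, against 194 to 221 CPM and 242 to 301 CPM in Xbp1 fl/fl libraries, although counts summed over a gene cannot show whether one exon is missing. The second LKO chow library had the smallest share of counts in its 20 most abundant genes, 15.8% (17.9% to 26.9% in the other libraries). Alb is one of those genes, at 1.67% of that library's counts, so this mark is not independent of Alb. Among transcription factor genes, Dbp was at 35.7 CPM in the second LKO chow library and at 85.1 to 130 CPM in the others. Hnf4a (808 CPM) and Cebpa (523 CPM) there lay within the range of the others. What sets that library apart was not tested. Values without that library are given beside the main results that depended on it. All 37 mitochondrially encoded genes are listed at 0, so each percentage of counts below is over nuclear genes. Values in CPM were scaled by trimmed mean of M-values (TMM) factors, which ran from 0.88 to 0.94 in Xbp1 fl/fl libraries and from 1.05 to 1.19 in Xbp1 LKO libraries.

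The sequence upstream of the start site is shown for Alb, which of the 10 genes had the largest genotype difference on chow and averaged over diets, and for the other windows of the 10 genes that held at least 2 matches to the motifs searched, which belong to Fetub and Rbp4. RefSeq has a start site for 8 of the 10 genes on build GRCm38.p6. Capitals mark matches on either strand to CCAAT, to CCACG, known as the core of ER stress elements bound by XBP1 and ATF6, and to TATAAA. The windows are the 250 bases before the start site, read 5′ to 3′ on the strand of the gene. They are chr5:90460620-90460869 (plus strand) for Alb, chr16:22918132-22918381 and chr16:22919972-22920221 (plus strand) for the first and second start sites of Fetub, and chr19:38124812-38125061 (minus strand) for the second start site of Rbp4.
Alb: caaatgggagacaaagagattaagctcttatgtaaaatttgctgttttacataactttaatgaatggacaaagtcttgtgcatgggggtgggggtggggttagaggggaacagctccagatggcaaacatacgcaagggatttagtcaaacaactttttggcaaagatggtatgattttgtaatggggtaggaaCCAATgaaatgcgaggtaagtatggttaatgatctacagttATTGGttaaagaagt
Fetub, first start: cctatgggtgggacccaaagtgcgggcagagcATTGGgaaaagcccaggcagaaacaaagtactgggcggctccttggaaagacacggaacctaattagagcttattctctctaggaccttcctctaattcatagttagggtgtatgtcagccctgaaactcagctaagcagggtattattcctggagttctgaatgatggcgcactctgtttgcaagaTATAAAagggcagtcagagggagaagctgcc
Fetub, second start: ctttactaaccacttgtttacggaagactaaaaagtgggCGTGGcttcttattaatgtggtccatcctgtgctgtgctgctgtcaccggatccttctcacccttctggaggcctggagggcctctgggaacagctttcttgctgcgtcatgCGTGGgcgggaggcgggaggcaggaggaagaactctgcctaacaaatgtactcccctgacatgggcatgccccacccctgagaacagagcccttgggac
Rbp4, second start: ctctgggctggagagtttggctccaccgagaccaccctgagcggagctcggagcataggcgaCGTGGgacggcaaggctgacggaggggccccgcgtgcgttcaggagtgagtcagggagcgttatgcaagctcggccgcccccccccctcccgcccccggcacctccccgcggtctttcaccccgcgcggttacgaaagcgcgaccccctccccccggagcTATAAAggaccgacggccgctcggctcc

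The Alb window held CCAAT at 56 and 15 bases before the RefSeq start, which itself lies before the GENCODE start of Alb at 90460897. TATAAA began 31 bases before the first start of Fetub and 28 bases before the second start of Rbp4. Among 32851 upstream windows of mouse genes of the same length, 33.8% held CCAAT, 28.3% CCACG and 12.4% TATAAA. Of these motifs CCACG was found in windows of Ahsg, Rbp4 and Fetub, and these letters are not in the Alb or Gc windows. The windows that held CCACG all lie inside the GENCODE spans of their genes, past the outermost annotated start. A match of letters is a description of the window and not a measured binding site.

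Alb took a far smaller share of the counts in Xbp1 LKO hepatocytes, and the other 9 genes together did not. Alb was 8.06%, 9.97% and 10.9% of library counts in fl/fl chow libraries and 3.72% and 1.67% in LKO chow libraries. On the HFS diet it was 6.70%, 5.88% and 7.42% in Xbp1 fl/fl and 5.40%, 3.33% and 4.38% in Xbp1 LKO mice. On both diets the knockout libraries all lay below the controls, and the highest knockout value, on the HFS diet, was below the lowest control value, also on the HFS diet. The genotype difference was -6.96 percentage points on chow and -2.30 on the HFS diet. Exact permutation of the libraries (two-sided) gave p = 0.1 on either diet, the smallest p these group sizes allow, and p = 0.005 for the mean difference of -4.63 points with libraries permuted within diets, again the smallest p possible. The other 9 genes summed to between 3.46% and 4.13% of counts in every library, so the sum over all 10 followed Alb: it was 11.9% to 14.96% in fl/fl chow, 5.13% to 7.59% in LKO chow, 9.83% to 11.3% in fl/fl HFS and 7.10% to 9.37% in LKO HFS libraries. A share of counts is on the scale of library totals, where the median log2 fold change of all genes averaged over diets was 0.30. The flat sum also joins genes that went opposite ways on that scale, such as Rbp4 (0.48) and Fetub (-0.44). It does not show that each of the 9 was unchanged, and on the TMM scale below several were lower.

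Within the albumin gene family, Alb and Gc differed in the size of their change. On the TMM scale Alb was at 86732, 113601 and 119367 CPM in fl/fl chow libraries, 34259 and 14021 in LKO chow, 71454, 64343 and 82040 in fl/fl HFS and 51478, 29578 and 38973 CPM in LKO HFS libraries. The groups did not overlap on either diet, and the 2 chow-fed knockout libraries lay 1.29 apart on the log2 scale. By the quasi-likelihood test of edgeR, adjusted over 13303 genes by the Benjamini-Hochberg method, the log2 fold change was -2.14 ± 0.38 (SE, adjusted p = 0.0107) on chow, a 4.41-fold lower mean, and -0.86 ± 0.32 (adjusted p = 0.178) on the HFS diet.

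Gc encodes the vitamin D binding protein. Its values were 8462, 9144 and 9473 CPM in fl/fl chow, 6636 and 5578 in LKO chow, 7935, 8679 and 8292 in fl/fl HFS, and 7756, 7133 and 7291 CPM in LKO HFS libraries. The genotypes did not overlap on either diet, but on the HFS diet the ranges were close, and as a percentage of counts Gc was higher, not lower, in every HFS-fed knockout library. Its log2 fold change was -0.56 ± 0.16 (adjusted p = 0.0696) on chow and -0.17 ± 0.14 (adjusted p = 0.615) on the HFS diet.

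Alb, Gc, Afp and Afm lie in one stretch of chromosome 5 that spans 1136 kb, with Afp 14.1 kb from Alb and Afm 10 kb from Afp. Afm, which encodes afamin, a vitamin E binding protein, fell by 1.60 on the log2 scale on chow (SE 0.28, adjusted p = 0.00931; -1.23, adjusted p = 0.0917, without the second LKO chow library) and had a log2 fold change of -0.93 ± 0.24 (adjusted p = 0.0511) on the HFS diet. Afp, the fetal albumin relative, was low: 1.27 to 2.99 CPM in fl/fl chow, 3.16 and 3.23 in LKO chow, 2.19 to 2.34 in fl/fl HFS and 3.42 to 8.24 CPM in LKO HFS libraries. Its log2 fold change averaged over diets was 1.02 ± 0.27 (adjusted p = 0.0282), and 1.01 (adjusted p = 0.0933) without that library.

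Ttr and Rbp4 encode transthyretin and retinol binding protein, which travel in plasma as a complex that carries retinol, and transthyretin also binds thyroxine. Ttr was at 7001, 9444 and 10015 CPM in fl/fl chow, 6195 and 3325 in LKO chow, 7852, 6488 and 8100 in fl/fl HFS, and 6816, 5389 and 5316 CPM in LKO HFS libraries. The chow groups did not overlap, but the HFS groups did, and the knockout pair on chow differed by 0.90 on the log2 scale. Rbp4 was at 3482, 3783 and 3793 CPM in fl/fl chow, 4468 and 4262 in LKO chow, 3923, 3538 and 4318 in fl/fl HFS and 4391, 4038 and 4449 CPM in LKO HFS libraries. The pair thus differed: Ttr was lower and Rbp4 higher in the chow-fed knockout libraries. The log2 fold change on chow was -0.89 ± 0.27 (adjusted p = 0.0899) for Ttr and 0.24 ± 0.15 (adjusted p = 0.415) for Rbp4, neither past the threshold of 0.05. Without the second LKO chow library Ttr had -0.51 ± 0.26 (adjusted p = 0.536) on chow. With libraries scaled to their total counts, Rbp4 on chow was past the threshold and higher (0.57, adjusted p = 0.0171).

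The ratio of counts of 2 genes in one library needs no scaling between libraries. For each Rbp4 count there were 24.9 to 31.5 Alb counts in fl/fl chow libraries and 3.29 to 7.67 in LKO chow libraries, and 18.2 to 19 against 7.32 to 11.7 on the HFS diet. For each Ahsg count there were 9.33 to 12.3 Alb counts in fl/fl chow and 1.66 to 3.59 in LKO chow libraries, with 6.32 to 8.32 and 3.60 to 5.32 under HFS feeding. Neither ratio overlapped between genotypes on either diet. For each Fetub count there were 83.4 to 130 Alb counts in fl/fl HFS libraries and 96.3 to 132 in LKO HFS libraries, which overlapped.

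Tf (transferrin, the plasma iron carrier) and Selenop (selenoprotein P, which carries selenium) were lower in the knockout. Tf was at 1265, 1237 and 874 CPM in fl/fl chow, 705 and 675 in LKO chow, 984, 1256 and 939 in fl/fl HFS, and 826, 699 and 699 CPM in LKO HFS libraries. Selenop was at 5443, 6195 and 5877 CPM, 4209 and 2968 CPM, 5769, 5913 and 5968 CPM, and 4669, 4472 and 4684 CPM in the same order of groups. For both genes no knockout library reached a control library of its diet. Selenop fell by 0.70 on the log2 scale on chow (SE 0.17, adjusted p = 0.0436), a call that was kept in 1 of 11 fits that each left out a library, and had a log2 fold change of -0.35 ± 0.15 (adjusted p = 0.262) on the HFS diet. Tf had -0.70 ± 0.20 (adjusted p = 0.067) and -0.52 ± 0.17 (adjusted p = 0.133).

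Ahsg, Fetub and Hrg encode fetuin-A, fetuin-B and histidine-rich glycoprotein, cystatin-family proteins of plasma that are neighbours on chromosome 16 with Kng1 and Kng2, the kininogens, in a stretch of 190.8 kb that holds no other coding gene. Ahsg, an inhibitor of mineral precipitation, was at 9299, 10230 and 9728 CPM in fl/fl chow, 9541 and 8453 in LKO chow, 9401, 10180 and 9866 in fl/fl HFS, and 9671, 8208 and 10164 CPM in LKO HFS libraries. The genotypes overlapped on both diets. Fetub was at 872, 979 and 534 CPM, 504 and 590 CPM, 624, 771 and 631 CPM, and 391, 307 and 360 CPM in the same order of groups. Its groups overlapped on chow and were separate on the HFS diet, where Fetub fell by 0.94 on the log2 scale (SE 0.21, adjusted p = 0.0306), a call that 6 of 11 fits without 1 library kept.

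Hrg was at 1732, 1957 and 925 CPM in fl/fl chow, 1286 and 1083 in LKO chow, 1498, 2275 and 1890 in fl/fl HFS, and 1299, 1320 and 1045 CPM in LKO HFS libraries. The third fl/fl chow library was the lowest of its group for Hrg, Fetub, Tf and Ambp. Ambp, whose precursor gives alpha-1-microglobulin and bikunin, was at 3591, 4089 and 2668 CPM, 2044 and 2077 CPM, 2599, 4116 and 2789 CPM, and 2116, 1962 and 2543 CPM in that order of groups, with no overlap between genotypes on either diet. The log2 fold change of Ambp was -0.74 ± 0.24 (adjusted p = 0.111) on chow and -0.52 ± 0.21 (adjusted p = 0.228) on the HFS diet, and that of Hrg -0.38 ± 0.29 (adjusted p = 0.525) and -0.63 ± 0.26 (adjusted p = 0.228). Averaged over diets Kng1 fell by 0.52 on the log2 scale (SE 0.12, adjusted p = 0.0155; -0.46, adjusted p = 0.0711, without the second LKO chow library), and Kng2 had -0.31 ± 0.10 (adjusted p = 0.0747).

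**Figure D1:**
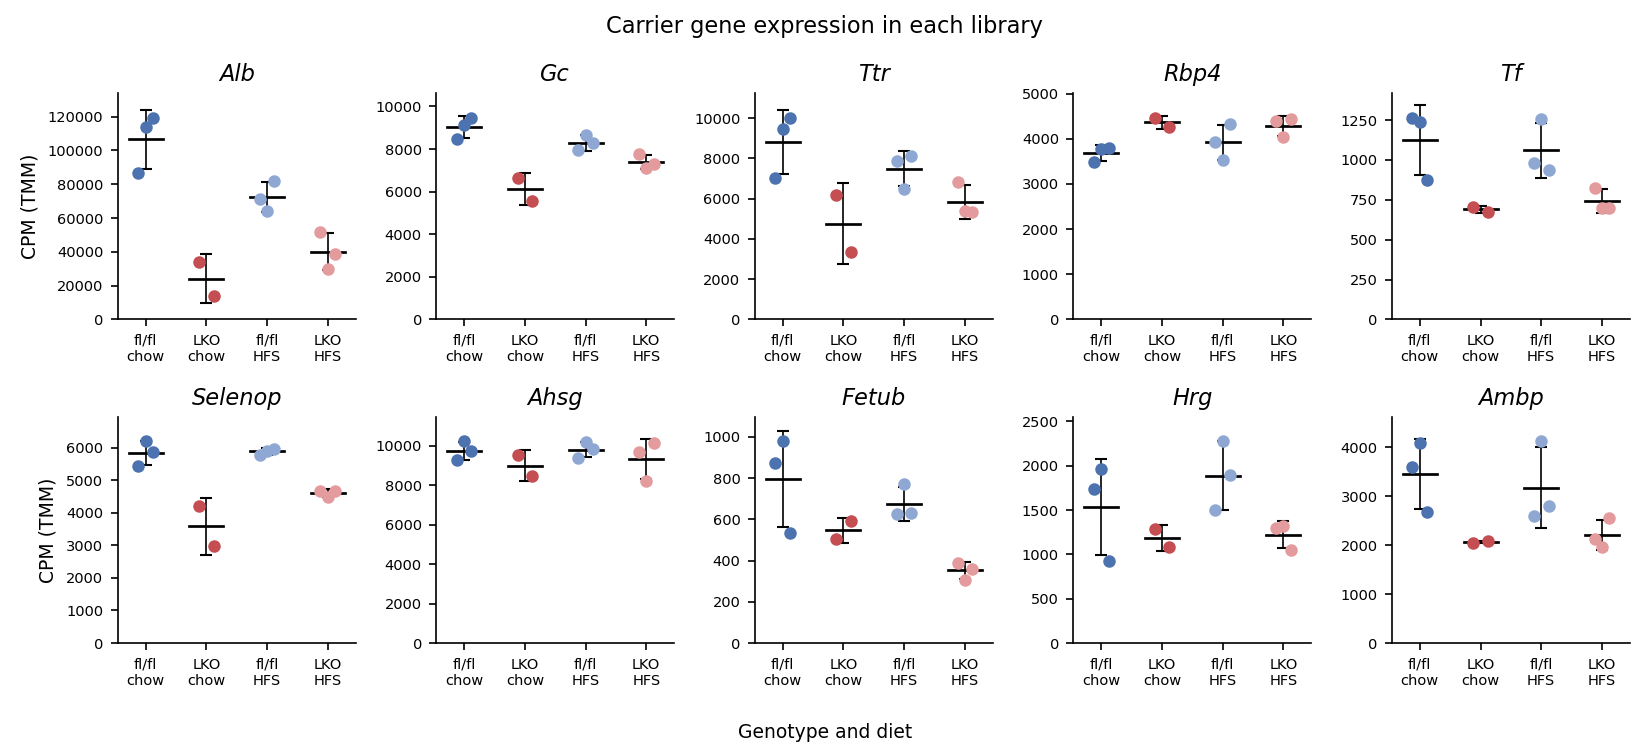
TMM-scaled expression of the 10 genes in CPM, by genotype and diet, with each library as a point, the group mean as a bar and the SD as a whisker, on axes that start at 0. Alb, Tf, Selenop, Ambp and Gc are lower in every Xbp1 LKO library than in the Xbp1 fl/fl libraries of the same diet, whereas Ahsg overlaps.

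The genotype comparison on chow asked which carriers differ without dietary load. Of 10 genes, 2 passed the threshold, Alb and Selenop, both lower, against 4.75% of all genes tested (3.02% lower). Non-overlapping CPM ranges were found for 6 genes that were lower (15.9% of all genes) and 1 that was higher, Rbp4 (15.4%). The median log2 fold change of the 10 was -0.63, where that of all genes was 0.00. Without the second knockout library, which leaves 1 knockout library on chow that is assumed to vary like the others, neither call was kept by edgeR. Alb then had a log2 fold change of -1.64 and Selenop -0.47. Fewer of all genes passed in that fit as well.

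The genotype comparison on the HFS diet asked the same with the dietary load. Of the 10 genes only Fetub passed by edgeR, lower, against 4.08% of all genes (2.16% lower), and 7 genes had ranges apart and lower (12.5%). By DESeq2, which called 981 of the 26012 genes with a p-value (not all of which had an adjusted p), 3 passed and were lower. They were Fetub, Alb (-0.87, adjusted p = 0.0404) and Tf (-0.52, adjusted p = 0.036). On both diets the ranges of 5 of the 10 were apart and lower (Alb, Gc, Tf, Selenop and Ambp), as were those of 6.19% of all genes. The median of the 10 was -0.44. Averaged over diets, 7 of 10 passed, against 11.9% of all genes (6.64% lower): Alb at -1.50 ± 0.25 (adjusted p = 0.00258), Fetub at -0.74 ± 0.16 (0.0109), Ambp at -0.63 ± 0.16 (0.0256), Ttr at -0.62 ± 0.18 (0.0441), Tf at -0.61 ± 0.13 (0.0111), Selenop at -0.53 ± 0.12 (0.0128) and Gc at -0.37 ± 0.11 (0.0446), with adjusted p in brackets. Hrg (-0.50, adjusted p = 0.123), Rbp4 (0.19, adjusted p = 0.279) and Ahsg (-0.09, adjusted p = 0.663) did not pass. Without the second chow-fed knockout library, which leaves 1 library in that group, fewer of the 7 calls were kept. The log2 fold changes were then nearer to no change for Alb (-1.25), Ttr (-0.43), Selenop (-0.41) and Gc (-0.31). Those of Tf (-0.60) and Ambp (-0.64) moved little, and that of Fetub was -0.80. Over 18 alternative fits, the averaged call was kept in 16 for Tf, 10 for Ambp, 6 for Ttr and 3 for Gc. For Alb and Fetub it was kept in all 18.

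**Figure D2:**
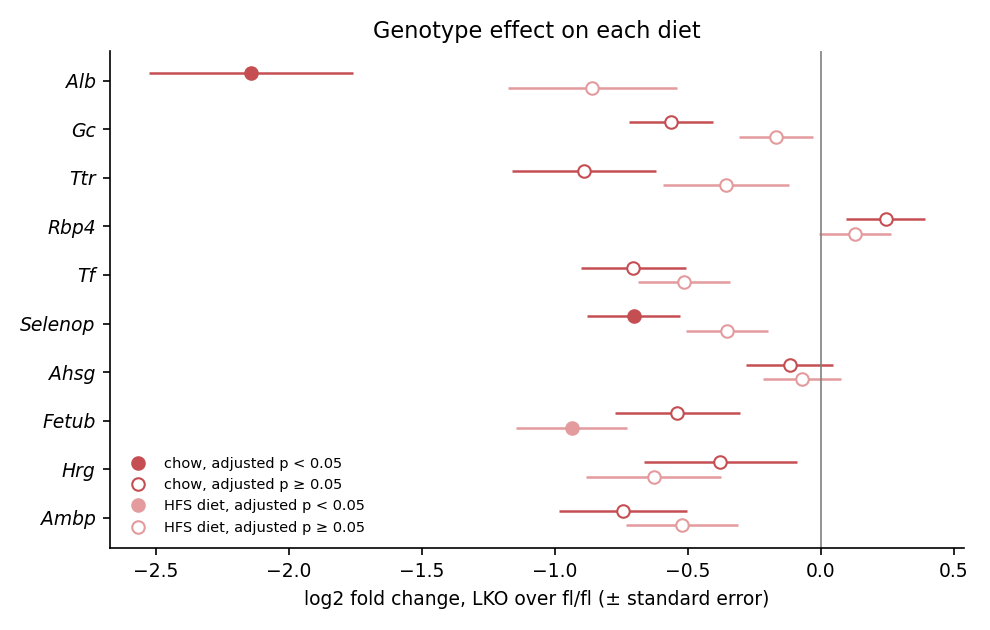
Log2 fold change of Xbp1 LKO over Xbp1 fl/fl for each gene, with its standard error as a bar, on chow (dark) and on the HFS diet (light), where filled points passed an adjusted p of 0.05. Alb lies at -2.14 on chow and -0.86 on the HFS diet, and Rbp4 to the right of 0 on both.

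The diet comparisons asked what HFS feeding changed within a genotype. By the study's description every HFS library was a pool of mice and no chow library was. Diet and pooling therefore cannot be told apart in these comparisons or in the spread behind the interaction below. None of the 10 genes passed in Xbp1 fl/fl (0.428% of all genes did) or in Xbp1 LKO mice (0.0601%) by edgeR, nor by DESeq2. At an unadjusted p under 0.05 edgeR called 0 of the 10 in Xbp1 fl/fl, against 1190 of all 13303 genes. In Xbp1 LKO mice it called 1, Fetub, against 1683 of all genes. Alb was lower in every HFS-fed than in every fl/fl chow library (log2 fold change -0.55 ± 0.32, adjusted p = 0.682), the only member with separate ranges there (7.34% of all genes were lower in this way). In Xbp1 LKO mice Alb overlapped between the diets (0.73 ± 0.36, adjusted p = 0.432), and the percentage of counts differed by 1.67 points (exact p = 0.3). Without the second LKO chow library these were 0.23 ± 0.31 (adjusted p = 0.928) and 0.64 points. In those mice Gc and Selenop were higher in every HFS-fed library (16.7% of all genes), with log2 fold changes of 0.28 ± 0.16 (adjusted p = 0.494) and 0.36 ± 0.17 (adjusted p = 0.42), and Fetub was lower in every one (14.4%), at -0.63 ± 0.23 (adjusted p = 0.296). Without that library the log2 fold change was 0.16 ± 0.18 for Gc, 0.14 ± 0.17 for Selenop and -0.51 ± 0.28 for Fetub (adjusted p = 0.904, 0.918 and 0.772).

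The interaction asked whether the genotype effect differed between diets. No gene of all 13303 passed by edgeR, whereas 816 had an unadjusted p under 0.05 and DESeq2 called 29, none of them among the 10. Alb had the largest interaction of the 10, a log2 difference of 1.28 ± 0.48 (unadjusted p = 0.0211, adjusted p = 0.749), so that its smaller genotype effect on the HFS diet was not shown to differ from that on chow. Without the second LKO chow library it was 0.78 ± 0.39 (unadjusted p = 0.0713).

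The scale set which genes were called and, for some, their direction. With library totals in place of TMM factors, the median of all genes rose to 0.33 on chow, 0.27 on the HFS diet and 0.30 averaged over diets, and calls over all genes shifted from 230 higher and 402 lower to 2684 higher and 315 lower on chow, from 256 and 287 to 1288 and 195 on the HFS diet, and from 699 and 883 to 5292 and 498 averaged over diets. On that scale Alb and Fetub averaged over diets were still lower (-1.22, adjusted p = 0.00165, and -0.44, adjusted p = 0.0344), and Rbp4 was higher (0.48, adjusted p = 0.00291). On chow the 2 genes past the threshold on that scale were Alb, lower, and Rbp4, higher, while Selenop was not past it (-0.38, adjusted p = 0.0716). Ahsg turned from -0.09 to 0.20 (adjusted p = 0.0961) and Gc on the HFS diet from -0.17 to 0.09 (adjusted p = 0.591). Leaving the counts of the 10 genes out of the totals gave medians over all genes of 0.21, 0.23 and 0.23, and calls of 895 higher and 287 lower on chow, 1003 and 201 on the HFS diet, and 3315 and 557 averaged over diets.

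**Figure D3:**
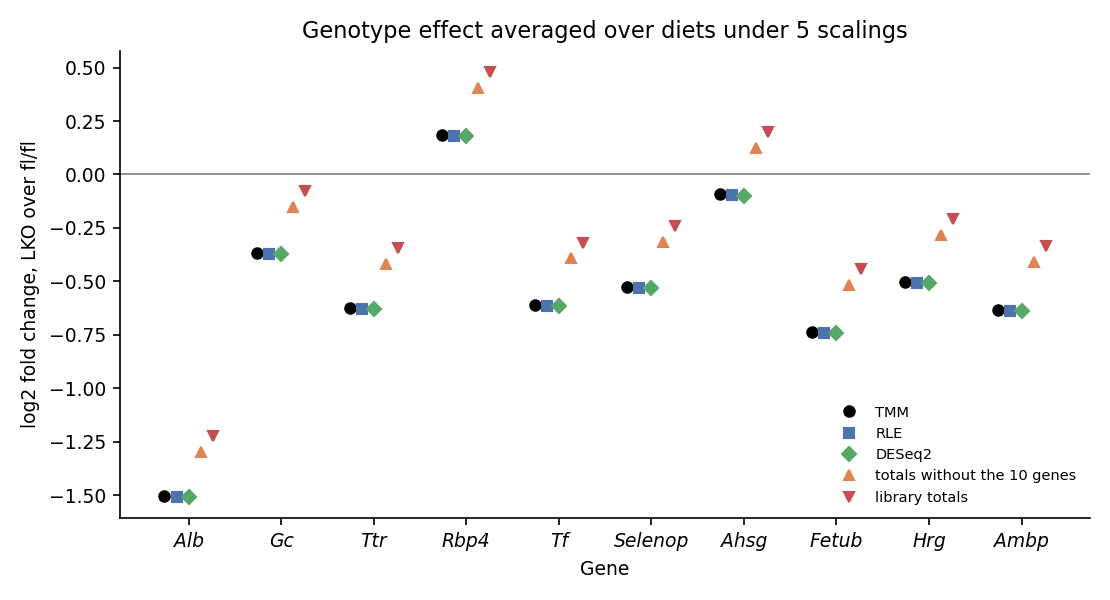
Log2 fold change of Xbp1 LKO over Xbp1 fl/fl averaged over diets for each gene under 5 scalings of the libraries. TMM, RLE and DESeq2 points nearly coincide, library totals lie higher for every gene, and Ahsg moves across 0 from -0.09 to 0.20.

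Levels of different genes were compared per kilobase of exon. Alb was first in all 4 groups, at 45502 CPM per kb in fl/fl chow and 10307 in LKO chow libraries, and at 31004 and 17084 on the HFS diet. Ttr was second in 3 groups, at 7437, 6307 and 4924 CPM per kb in fl/fl chow, fl/fl HFS and LKO HFS libraries. In LKO chow libraries Ahsg (4095) and Ttr (4013) followed Alb, and these 2 overlapped. Alb did not overlap with the gene below it in any group, so it stayed the most abundant carrier message. The lowest 2 were Fetub and Tf in every group, which overlapped in both Xbp1 fl/fl groups.

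Across the 11 libraries, the patterns of log2 CPM most like that of Alb, by the root mean square (RMS) difference after centring, were those of Hsd11b1 (0.247), which regenerates active glucocorticoid, Gm2a (0.251), Afm (0.269), Nrg4 (0.304) and Ftcd (0.304). The median over 7486 genes with a mean of at least 10 CPM was 0.904. Among the carriers Ttr ranked 69 (0.501), Selenop 204 (0.612) and Tf 340 (0.671), and Rbp4 ranked 5512 (0.965). The nearest patterns changed without the second LKO chow library, a choice made after seeing the data: they were then Ostc (0.128), a subunit of the ER oligosaccharyltransferase, Tram1 (0.191), of the ER translocon, Hsd11b1 (0.194), Afm (0.208) and Frmd4b (0.209).

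Other secreted and liver genes were lower in part as well. Of 27 other plasma carriers and binding proteins tested, 7 were lower and 2 higher averaged over diets, with a median log2 fold change of -0.43, where 6.64% of all genes were lower and 11.9% passed in either direction. Serpina7, the thyroxine binding globulin, was the exception in size: it rose by 3.26 on the log2 scale on chow (SE 0.57, adjusted p = 0.00979) and by 3.93 on the HFS diet (SE 0.56, adjusted p = 0.00367). Ttr, another thyroxine carrier, was lower averaged over diets, but did not pass on chow (adjusted p = 0.0899) or on the HFS diet (0.504). With library totals Ttr did not pass averaged over diets either (-0.34, adjusted p = 0.0857). Azgp1, a zinc-binding glycoprotein, fell by 1.72 on chow (adjusted p = 0.00449) and by 1.58 on the HFS diet (adjusted p = 0.00276), and Itih1, a partner of bikunin, fell by 0.86 on the HFS diet (adjusted p = 0.0119). Of 11 apolipoproteins 3 were lower averaged over diets (Apoa1, Apof and Apoa5, median of the list -0.38), and of 30 intracellular liver genes 9 were lower (median -0.37), among them Sds, Arg1 and Gls2 of amino acid metabolism. Without the second LKO chow library fewer genes of each list were called. The medians were then -0.46 for the other carriers, -0.27 for the apolipoproteins and -0.26 for the intracellular genes. On chow Serpina7 had 2.49 and Azgp1 -1.55, and neither call was kept. With library totals, where the median of all genes was 0.30 and 39.8% of them were higher and 3.74% lower, 5 other carriers were lower and 3 higher (median -0.10), 2 apolipoproteins were lower (median -0.09), and 6 intracellular genes were lower and 7 higher (median -0.08). Serpina7 (3.90) was higher and Azgp1 (-1.36) and Apoa1 (-1.05) were lower on that scale too, each past the threshold.

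Genes for receptors and handling of the carriers and for liver transcription factors stood closer to 0. Of 15 receptor and handling genes 3 were lower averaged over diets (median -0.23): B2m (-0.83, adjusted p = 0.00144), the light chain partner of the albumin-recycling receptor, Lrp1 (-1.08, adjusted p = 0.00207) and Stra6l (-0.38, adjusted p = 0.0463). Fcgrt, the heavy chain of that receptor, had 0.02 (adjusted p = 0.907). Among 18 selenium genes 2 were lower, Selenos (-0.64, adjusted p = 0.00406) and Selenok (-0.34, adjusted p = 0.044), both proteins of the ER membrane. Of all genes 6.64% were lower. Without the second LKO chow library Selenok did not pass (-0.39, adjusted p = 0.0888). None of 21 liver transcription factors passed by edgeR averaged over diets, nor any by DESeq2. By edgeR 1 had an unadjusted p under 0.05, against 3401 of all 13303 genes. Hnf4a (-0.08, adjusted p = 0.661) and Cebpa (0.07, adjusted p = 0.701) had values near 0. These lists depended on the scale: with library totals 9 transcription factors were higher and none lower (median 0.28), with Cebpa at 0.37 (adjusted p = 0.0131), and 9 selenium genes were higher and 1 lower. Over all genes 39.8% were higher on that scale, with a median of 0.30, so the transcription factors lay close to the shift of all genes. Of the receptor and handling genes 5 were then higher and 2 lower, with Fcgrt at 0.32 (adjusted p = 0.0146), B2m at -0.54 (adjusted p = 0.00272) and Lrp1 at -0.79 (adjusted p = 0.00392).

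**Figure D4:**
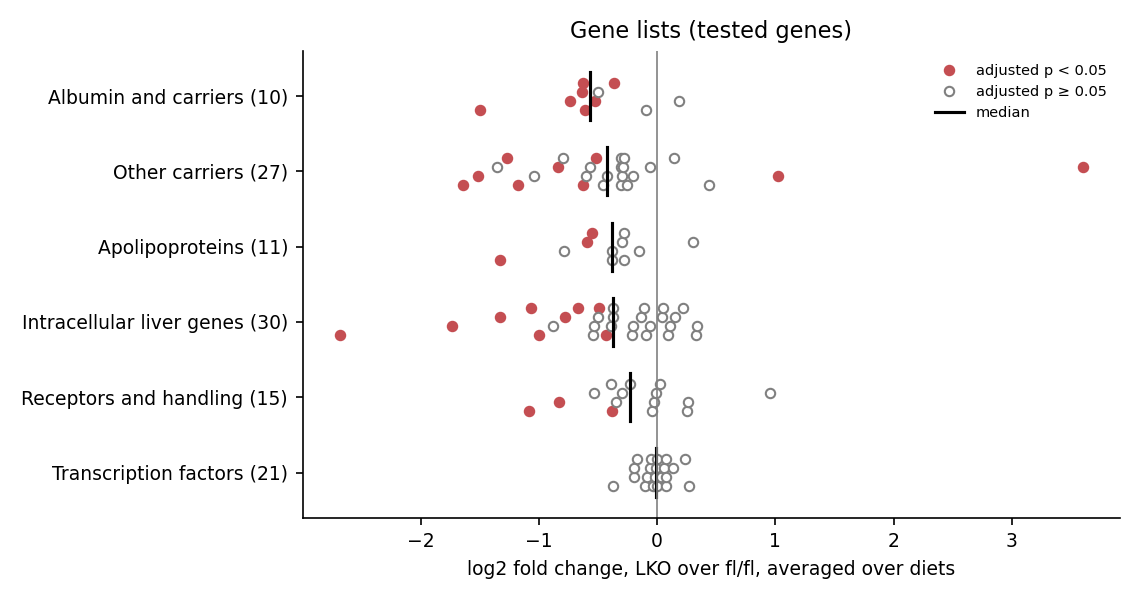
Log2 fold change of Xbp1 LKO over Xbp1 fl/fl averaged over diets for each tested gene of 6 lists (number of genes in brackets), with genes past an adjusted p of 0.05 in red and the list median as a bar. The carriers have a median of -0.57, and the transcription factors lie about 0 with none past the threshold on this TMM scale, whereas with library totals their median is 0.28 and 9 are higher.

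Messages of other liver cells were scarce, and their summed levels ranged widely. Summed over the list, endothelial markers were at 49.9 to 119 CPM in fl/fl chow, 29.6 to 38.6 in LKO chow, 96.3 to 163 in fl/fl HFS and 79.9 to 124 CPM in LKO HFS libraries, stellate markers at 17.0 to 55.8, 12.03 to 14.7, 30.1 to 52.9 and 32.9 to 68.1 CPM, macrophage markers at 23.7 to 101, 27.6 to 40.3, 45.0 to 64.7 and 63.9 to 115 CPM, and cholangiocyte markers at 8.03 to 12.4, 5.11 to 5.63, 3.57 to 12.7 and 10.7 to 16.5 CPM. Averaged over diets 4 of 12 endothelial markers were lower (6.64% of all genes were), and 1 was with library totals (3.74% of all genes). The median log2 fold change of these markers was -0.88. Without the second LKO chow library it was -0.84, and the calls were not kept. All 15 hepatocyte markers were present in every library, and none of them was at 0. Their sum was 53419 to 62891 CPM in fl/fl chow, 39602 to 51102 in LKO chow, 58822 to 63803 in fl/fl HFS and 36340 to 44304 CPM in LKO HFS libraries. On this TMM scale every knockout library lay below the controls of its diet. As a percentage of counts the chow groups overlapped (4.83% to 5.84% in fl/fl, 4.72% and 5.55% in LKO). The HFS groups did not (5.42% to 5.83% in fl/fl, 4.08% to 4.64% in LKO). The part of these cells in the results was not tested, and fewer cells of a type and less RNA per cell cannot be told apart in bulk samples.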

How the data were processed

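The authors sequenced RNA of isolated hepatocytes as single-end reads and deposited 1 file of whole-number counts per gene and library, without normalization. The paper's methods name kallisto and tximport, whereas the submitters' processing notes list cutadapt 1.13, STAR, HTSeq 0.6.1p1, DESeq2 and mm10, so which counter made the deposited counts is not settled. Without it, the sharing of reads between close gene copies is unknown. The paper names a stranded mRNA kit and the labels a total RNA kit.

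Gene symbols and positions came from GENCODE M21 (54165 of 54232 identifiers matched). CPM and TMM scaling came from edgeR 4.0.16 (R 4.3.3). Low genes were removed by filterByExpr (minimum count 10), which left 13303 genes, and all 11 libraries entered one quasi-likelihood fit with a mean for each of the 4 groups, with Benjamini-Hochberg adjustment at 0.05. Standard errors are the log2 fold change over the square root of F. Shares of counts were compared by exact permutation tests. Log2 CPM used a prior count of 2. Same-numbered libraries did not deviate together (mean r of -0.0086 over 15 pairs), so the numbers do not pair them. The members and lists were chosen with earlier results of these data known. Named genes are the 10 members, the 3 with the smallest unadjusted p of a list, neighbours and receptor, transcription factor and pattern genes named by the same rule. The code was tested on simulated counts. Alternatives were DESeq2 1.42.0, RLE factors, library totals with and without the 10 genes, genes with at least 1 count, replicate blocks, only the groups compared, and each of 11 libraries left out. Counting error is small against the spread between libraries, where replicate pairs differed by 27.9 to 102 in chi-square per degree of freedom.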

Additional observations from a re-analysis of the deposited data

How the results depend on the processing

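The number of the 10 genes past the threshold was 2 on chow, 1 on the HFS diet and 7 averaged over diets. DESeq2 gave 6, 3 and 7, and genes with at least 1 count gave 5, 3 and 7, and 1 each (Fetub lower, Alb higher) for the diet effect in Xbp1 LKO and the interaction. DESeq2 gave a p-value for 26012 genes in every comparison, but by default leaves genes with low counts without an adjusted p. How many had an adjusted p is not given here. The fit of genes with at least 1 count tested 26016, where the main fit tested 13303, so its counts over all genes are over more genes. Averaged over diets DESeq2 called 1931 and the fit of genes with at least 1 count 2325 of all genes. Library totals gave 2 on chow (Alb lower and Rbp4 higher, in place of Alb and Selenop lower), and 3 averaged over diets, and totals without the 10 genes 1 on chow. Fits of only the groups compared gave 0 on chow. Leaving out 1 library gave 0 to 3 on chow, 0 to 1 on the HFS diet and 3 to 6 averaged over diets. Over all genes, 632 on chow became 1119 by DESeq2, 2999 with library totals, 1182 with totals without the 10 genes, 1507 with genes of at least 1 count, 233 with only the groups compared and 69 to 762 without 1 library. On the HFS diet 543 became 981, 1483, 1204, 1438 and 184 to 662. For the diet in Xbp1 fl/fl 57 became 176 by DESeq2, 499 with the lower filter and 6 to 59 without 1 library, and in Xbp1 LKO 8 became 214, 722 and 0 to 36, and 0 with only the groups compared. The interaction's 0 became 29 by DESeq2 and 269 with the lower filter. Averaged over diets 1582 became 5790 with library totals, 3872 without the 10 genes in them and 846 to 1735 without 1 library. The cause of these changes was not tested.

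With the replicate number as a block, 1 gene passed on chow with either numbering, 5 averaged over diets with the title numbers, and 0 on the HFS diet and 4 averaged over diets with the file name numbers. The diet effect in Xbp1 LKO went from 8 to 19 and 53 of all genes. Under the block with file name numbers, Rbp4 in that effect changed sign to 0.0059 and Hrg to -0.087.

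On the TMM library size, the genotype difference on chow was -8.24 percentage points for Alb and -9.42 for the 10 genes, and -3.88 for the 10 on the HFS diet. Without 1 library, the Alb difference ran from -7.98 to -5.93 on chow.

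Sign changes were found only where the log2 fold change was not past the threshold. With library totals Ahsg went to 0.21 on chow, 0.19 on the HFS diet and 0.20 averaged over diets, Gc to 0.090 on the HFS diet, Hrg to -0.0044 for the diet in Xbp1 LKO and Ahsg to -0.022 in the interaction. With totals without the 10 genes Ahsg went to 0.092, 0.15 and 0.12, Gc to 0.055, and, for the diet in Xbp1 fl/fl, Ahsg to -0.025 and Selenop to -0.022. Without 1 library, these log2 fold changes spanned 0. For the genotype effect on the HFS diet they ran from -0.13 to 0.015 for Ahsg. For the diet effect in Xbp1 fl/fl they ran from -0.24 to 0.0061 for Tf, -0.024 to 0.045 for Ahsg, -0.36 to 0.018 for Ambp and -0.037 to 0.056 for Selenop. For the diet effect in Xbp1 LKO they ran from -0.077 to 0.81 for Ttr, -0.050 to 0.019 for Rbp4, -0.022 to 0.14 for Ahsg, -0.066 to 0.17 for Hrg and -0.015 to 0.18 for Ambp. For the interaction they ran from -0.037 to 0.13 for Ahsg and -0.46 to 0.010 for Hrg.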
